A study of Homo sapiens with 9 samples.

Results

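Oxidative phosphorylation genes, 106 in all, were followed across 9 poly(A) RNA sequencing libraries of MCF10A-YAP cells. The genes were chosen by symbol alone: protein-coding genes that begin with MT- (the 13 mRNA genes of mitochondrial DNA), and 93 nuclear genes named NDUFA, NDUFB, NDUFC, NDUFS, NDUFV, SDH, UQCR, COX4 to COX8, ATP5F1, ATP5M or ATP5P, without the NDUFAF assembly factors. They are 106 of 59294 genes with a transcript in the files. By its symbols the rule also takes 4 assembly factors of complex II (SDHAF1 to SDHAF4) and 2 readthrough genes (NDUFC2-KCTD14 and ATP5MF-PTCD1), and 6 members had too few reads to test. MCF10A is an immortalised, non-transformed breast epithelial line, and all 3 groups overexpressed a constitutively active YAP (the 5SA mutant), the transcription coactivator of the Hippo pathway. Cells were transduced with a lentiviral CRISPR vector, selected with puromycin and used as pools, not as single clones. The control group carried a non-targeting sgRNA, and the other 2 groups carried TRAM2-KO1 or TRAM2-KO2, sgRNAs against TRAM2, a translocon component at the endoplasmic reticulum. Each group had 3 libraries, lettered A, B and C. Nothing in the sample labels says how separately the cultures of a group were kept, so p values measure the spread between these libraries.

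Depth was between 21.7 and 27.6 M estimated reads per library. The targeted gene TRAM2 fell from 473 ± 8.42 CPM (read counts scaled to library size, mean ± SD, n = 3) in control to 211 ± 8.12 with TRAM2-KO1 and 213 ± 2.75 with TRAM2-KO2. The epithelial keratin KRT5 was between 1038 and 1264 CPM in every library and the adhesion gene CDH1 between 108 and 183. The basal factor TP63 was near 0, at 0.111 CPM or less, as were the progesterone receptor PGR (0 in every library), the leukocyte marker PTPRC (0.0462 or less) and the muscle marker CKM (at most 0.0368). The estrogen receptor ESR1 was low but present, between 2.54 and 4.23 CPM. The fibroblast markers PDGFRA, COL1A1 and COL3A1 reached at most 0.117, 1.16 and 0.416 CPM, and the muscle marker ACTA1 0.149. KRT5, KRT14 and KRT17 were higher with TRAM2-KO2 (log2 fold change 0.13, 0.48 and 0.27, edgeR adjusted p = 0.0269, 0.00902 and 0.00312). CDH1 was lower with TRAM2-KO1 (-0.41, edgeR adjusted p = 0.00360). ITGB4, EPCAM, ESR1 and COL1A1 did not pass with either guide against control. The part of these markers in the other results was not tested. In TRAM2-KO1 B and C, but not in A, transcripts rich in G and C were low relative to control. These libraries are given separately for some results, and the other TRAM2-KO1 counts and medians pool them and carry this trend.

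Oxidative phosphorylation passes electrons from NADH and succinate through complexes I, II, III and IV of the inner mitochondrial membrane to oxygen, and complex V uses the proton gradient so formed to make ATP. Mitochondrial DNA encodes core subunits of complexes I, III, IV and V, and every other subunit, including all of complex II, is encoded in the nucleus, translated in the cytosol and imported. Mitochondrial genes are transcribed from both strands as long precursors that are cut at the tRNAs between them, so the mRNAs of the heavy strand promoter share a precursor, while MT-ND6 comes from the light strand.

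Several features of the mitochondrial mRNAs bear on how their reads were counted, and the sequences below, from GENCODE transcripts that matched the identifiers and lengths of all 13 mRNAs in the files, show them. Positions are on GRCh37. MT-ATP8 is the shortest, 207 bases long, and its last 46 bases (22.2% of it, chrM:8527-8572) are also the first bases of MT-ATP6. MT-ND4L and MT-ND4 share 7 bases (chrM:10760-10766). Capitals mark the shared bases, and reads inside them cannot be told apart. No tRNA lies between genes that overlap, so these are separate entries of the annotation and need not be separate molecules. The 3 stretches are the whole annotated MT-ATP8 transcript (chrM:8366-8572, plus strand), the last 60 bases of MT-ND4L (chrM:10707-10766, plus) and the first 60 of MT-ND4 (chrM:10760-10819, plus).
MT-ATP8: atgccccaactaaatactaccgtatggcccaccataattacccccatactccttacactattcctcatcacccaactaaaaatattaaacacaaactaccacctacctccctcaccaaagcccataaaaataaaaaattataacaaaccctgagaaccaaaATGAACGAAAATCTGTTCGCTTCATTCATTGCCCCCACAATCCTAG
MT-ND4L: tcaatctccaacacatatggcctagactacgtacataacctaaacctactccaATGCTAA
MT-ND4: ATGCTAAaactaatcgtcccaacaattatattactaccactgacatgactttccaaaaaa

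In 6 of the 13 mRNAs the coding sequence ends inside a stop codon, of which the genome holds only T or TA, and the poly(A) tail supplies the rest. That tail is also what a poly(A) selection binds. The last 30 bases of 3 of them, with the incomplete stop codon in capitals, come from complex I (MT-ND1, chrM:4233-4262, plus), complex III (MT-CYB, chrM:15858-15887, plus) and complex IV (MT-CO3, chrM:9961-9990, plus).
MT-ND1: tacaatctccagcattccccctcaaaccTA
MT-CYB: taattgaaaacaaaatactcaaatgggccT
MT-CO3: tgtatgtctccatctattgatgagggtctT

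MT-ND6, the only mRNA gene of the light strand, is rich in G and T where the others are rich in C and A. Its first 60 bases, with the start codon in capitals, lie at chrM:14614-14673 on the minus strand.
MT-ND6: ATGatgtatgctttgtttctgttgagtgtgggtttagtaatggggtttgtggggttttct

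In control cells the mitochondrial mRNAs far exceeded the nuclear ones per length. By deposited TPM (a level per effective length), the 13 MT- genes summed to 88186 ± 9005 TPM (mean ± SD, n = 3) and the 93 nuclear genes to 15652 ± 85.8 TPM. The MT- sum is raised by MT-ATP8, MT-ND4L and MT-ND3, whose effective lengths are very short. By CPM, which is not scaled to length, the sums were 27375 ± 2149.5 and 6388 ± 29.3. MT-ATP8 led the list at 36687 ± 5072 TPM, but Salmon gave its 207 bases an effective length of 10.8 nt in control A, and by reads per kilobase of full length in that library it stood below MT-ATP6, at 46884 against 95428. MT-ND4L (9009 ± 647 TPM), with an effective length of 49.7 nt, and MT-ND3 (3188 ± 246 TPM), with 97.0 nt, are raised in the same way. Among the 10 other genes MT-CO2 stood highest (9686 ± 1274 TPM), ahead of MT-CO1 (6365 ± 278), MT-ATP6 (6322 ± 691) and MT-CO3 (5686 ± 452), the catalytic core of complex IV and a proton channel subunit of complex V. The intervals of mean ± SD of MT-CO1, MT-ATP6 and MT-CO3 overlap. MT-ND4 (3688 ± 162), MT-ND2 (2338 ± 188), MT-CYB (2135 ± 154), MT-ND1 (1741 ± 133) and MT-ND5 (1041 ± 31.0) followed, with MT-ND2 and MT-CYB not separated by their SD, and MT-ND6 was lowest at 299.6 ± 36.0 TPM.

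Nuclear subunits differed by complex in level per length. The median of the genes tested in control was 327 TPM in complex IV (14 genes), 246 in complex V (17), 148 in complex III (9), 108 in complex I (37) and 89.2 in complex II (4). NDUFA4, a subunit of complex IV in spite of its name, was by TPM the highest nuclear subunit mRNA of complex IV, at 836 ± 27.4. By reads over all libraries COX4I1 exceeded it, at 43482 against 26473. ATP5F1B, the catalytic beta subunit of the synthase, led complex V at 678 ± 17.6 TPM. NDUFS5 led complex I (381 ± 6.25 TPM), UQCRQ complex III (371 ± 5.08) and SDHC, a membrane anchor, complex II (175 ± 10.8). Among tested genes the lowest were NDUFB6 at 12.1 ± 0.449 TPM in complex I, SDHD at 67.2 ± 4.80 in II, UQCRHL at 23.6 ± 0.927 in III, COX6B2 at 1.25 ± 0.104 in IV and ATP5F1D at 72.0 ± 3.06 in V. Salmon's estimates for genes with close copies, such as UQCRH and its intronless copy UQCRHL, may be split between the copies.

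**Figure D1:**
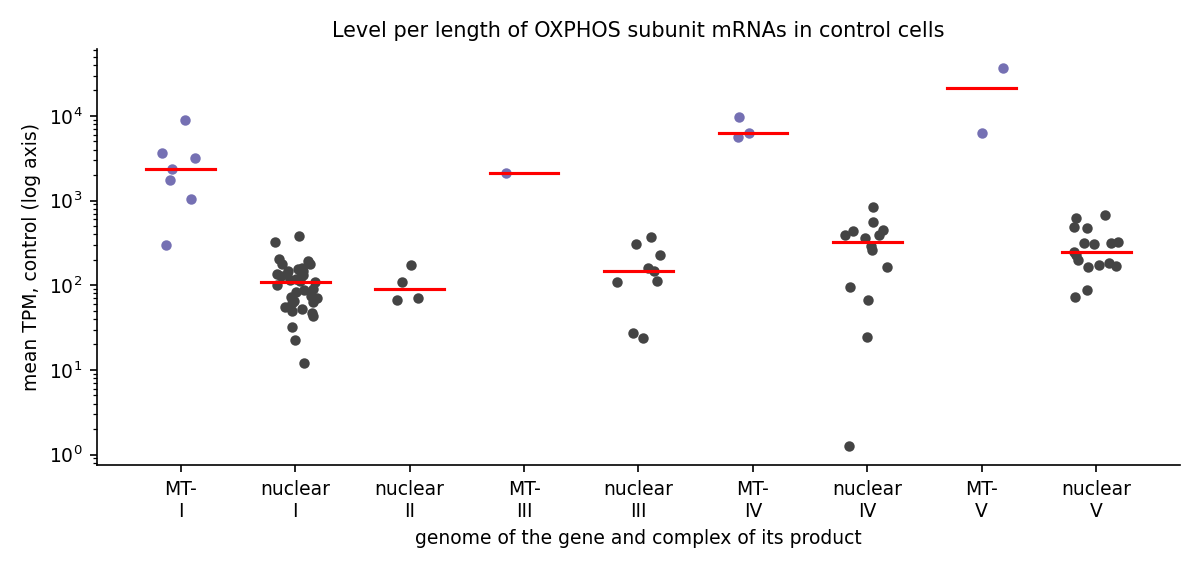
Mean deposited TPM in the 3 control libraries (log axis) for each tested subunit gene, grouped by genome and complex, with the group median as a red line. The mitochondrial genes run from 299.6 to 36687 TPM, and the nuclear medians run from 89.2 TPM in complex II to 327 in complex IV. The top value, MT-ATP8, and those of MT-ND4L and MT-ND3 are raised by very short effective lengths.

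Summed mitochondrial mRNA varied more between libraries of a group than between groups. The 13 MT- genes together were at 29037 (A), 28140.2 (B) and 24947 (C) CPM in control, at 34754, 26939 and 29815 with TRAM2-KO1, and at 32262, 23709 and 27008 with TRAM2-KO2. The highest and lowest libraries thus both carried a TRAM2 guide, and the 3 groups overlap. Group means were 27375 ± 2149.5 CPM in control, 30503 ± 3952 with TRAM2-KO1 and 27659.7 ± 4313 with TRAM2-KO2 (SD, n = 3). The difference of mean log2 sums was 0.15 with TRAM2-KO1 and 0.01 with TRAM2-KO2, against a spread within groups of 0.18 (SD, log2). In bulk RNA a lower level in fewer cells and less RNA in every cell cannot be told apart.

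The 93 nuclear genes together were far steadier. They summed to 6397, 6412 and 6356 CPM in control, to 6522, 6817 and 6526 with TRAM2-KO1, and to 6527, 6471 and 6381 with TRAM2-KO2. TRAM2-KO1 libraries all lay above the controls, while TRAM2-KO2 C lay among them. Group means were 6388 ± 29.3, 6622 ± 169 and 6459.7 ± 73.3 CPM, a difference of 0.05 (log2) with TRAM2-KO1 and 0.02 with TRAM2-KO2. The ratio of mitochondrial to nuclear CPM was 4.54, 4.39 and 3.93 in control, 5.33, 3.95 and 4.57 with TRAM2-KO1, and 4.94, 3.66 and 4.23 with TRAM2-KO2, and the groups overlap. No test was run on these sums.

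**Figure D2:**
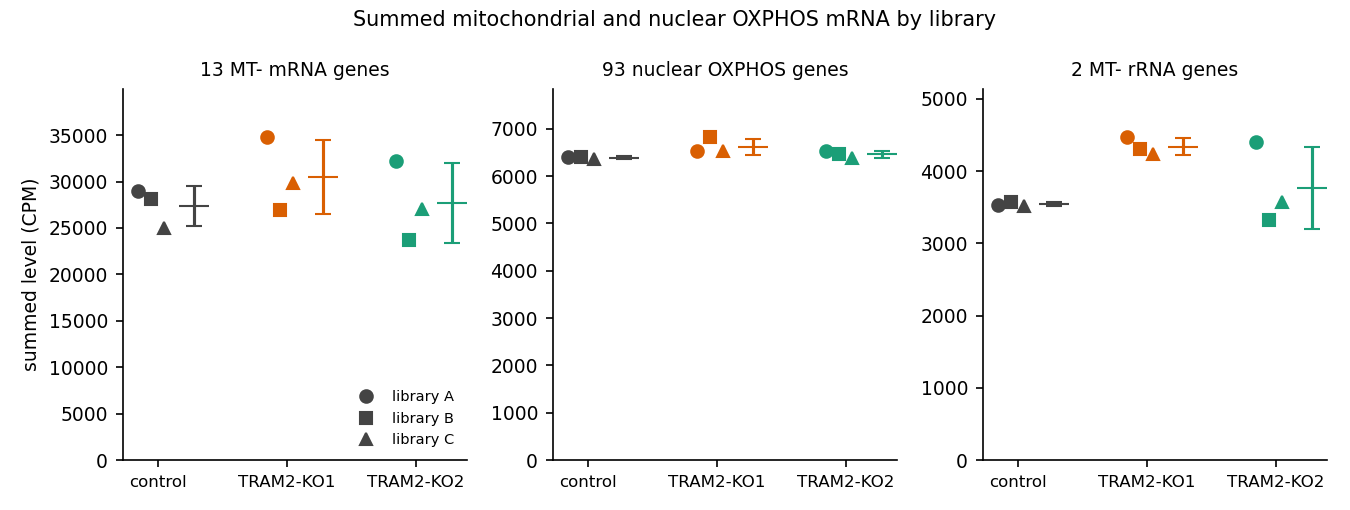
Summed level (CPM) of the 13 MT- mRNA genes, the 93 nuclear OXPHOS genes and the 2 MT- rRNA genes in each library, with the mean ± SD of each group (n = 3) to the right of its points. The mitochondrial sums overlap between groups (23709 to 34754 CPM), whereas the nuclear sums stay between 6356 and 6817 CPM.

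None of the 13 mitochondrial mRNAs passed the test in any comparison. edgeR's quasi-likelihood test (Benjamini-Hochberg adjusted p under 0.05 over 15139 genes) called 0 of 13 up with TRAM2-KO1, where 0.753% of all genes tested were called up, and 0 down, where 2.15% were. With TRAM2-KO2 it called 0 up and 0 down, against 1.73% and 2.49% of all genes. At an unadjusted p under 0.05, 2 of 13 were higher with TRAM2-KO1, where 8.51% of all genes were, and 0 were lower, where 10.0% were. With TRAM2-KO2 it was 0 and 0, against 6.84% and 8.18% of all genes. DESeq2 called 0 of 13 with either guide, where it called 4.26% of all genes with TRAM2-KO1 and 4.13% with TRAM2-KO2 in either direction. All 13 had a positive log2 fold change with TRAM2-KO1 (median 0.15, from 0.02 to 0.30, against 0.01 over all genes) and 9 of 13 with TRAM2-KO2 (median 0.00, from -0.07 to 0.13). The heavy strand genes share a precursor, and all 13 share their libraries, so they are not 13 separate observations.

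MT-CO1, the catalytic subunit of complex IV, was at 7697, 7654 and 7000.3 CPM in control, 9329, 7514 and 8023 with TRAM2-KO1, and 8422, 6684 and 7301 with TRAM2-KO2. TRAM2-KO1 A is the highest library and TRAM2-KO2 B the lowest, and each group overlaps the others. For TRAM2-KO1 its log2 fold change was 0.15 (SE 0.09, edgeR adjusted p = 0.390), and the 95% interval ran from -0.05 to 0.35. For TRAM2-KO2 it was 0.00 (SE 0.09, edgeR adjusted p = 0.994), with an interval of -0.20 to 0.20, so a change of that size was not detectable at this spread.

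MT-ND1 and MT-ND2, the mRNA genes nearest to the heavy strand promoter, which encode membrane subunits of complex I, had the most positive values with TRAM2-KO1. MT-ND1 was at 1209, 1115 and 1019 CPM in control, 1585, 1172 and 1347 with TRAM2-KO1, and 1448, 1010.4 and 1165 with TRAM2-KO2. Its TRAM2-KO1 libraries overlap the controls through library B, and the log2 fold change was 0.30 (SE 0.13, edgeR adjusted p = 0.265). MT-ND2 gave 0.25 (SE 0.11, adjusted p = 0.254), with 1829.7, 1677 and 1530.5 CPM in control and 2193, 1781 and 2019 with TRAM2-KO1. For complex III, MT-CYB was at 1842, 1762 and 1569.5 CPM in control and 2228, 1687 and 1807 with TRAM2-KO1, which overlap. For complex V, MT-ATP6 was at 2652, 2631 and 2138 CPM in control, 3215, 2309.8 and 2646 with TRAM2-KO1, and 3016, 2034 and 2397 with TRAM2-KO2.

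The libraries moved as blocks across the heavy strand genes. Of the 13 genes, 11 were highest in TRAM2-KO1 A, 1 in TRAM2-KO2 A and 1 in control C, and 10 were lowest in TRAM2-KO2 B, 2 in control C and 1 in control B. The gene highest in control C was MT-ND6, at 75.7, 65.9 and 82.9 CPM in control, 80.9, 70.6 and 76.2 with TRAM2-KO1 and 69.5, 67.9 and 76.1 with TRAM2-KO2. Its log2 fold changes were 0.02 (SE 0.08, edgeR adjusted p = 0.909) and -0.07 (SE 0.08, adjusted p = 0.796). The within-group SD of log2 level had a median of 0.18 over the 13 mitochondrial genes (0.12 to 0.24), 0.06 over the 87 nuclear genes tested and 0.06 over 9355 genes at 10 CPM or more, of which 94.9% had a smaller SD than the mitochondrial median. The 2 mitochondrial rRNAs, which a poly(A) selection captures in part, summed to 3534, 3571 and 3518 CPM in control, 4465, 4304 and 4234 with TRAM2-KO1, and 4402, 3323 and 3568 with TRAM2-KO2. Their sum was also highest in TRAM2-KO1 A and lowest in TRAM2-KO2 B, and all 3 TRAM2-KO1 libraries lay above the controls. What sets the mitochondrial level of a library was not tested.

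**Figure D3:**
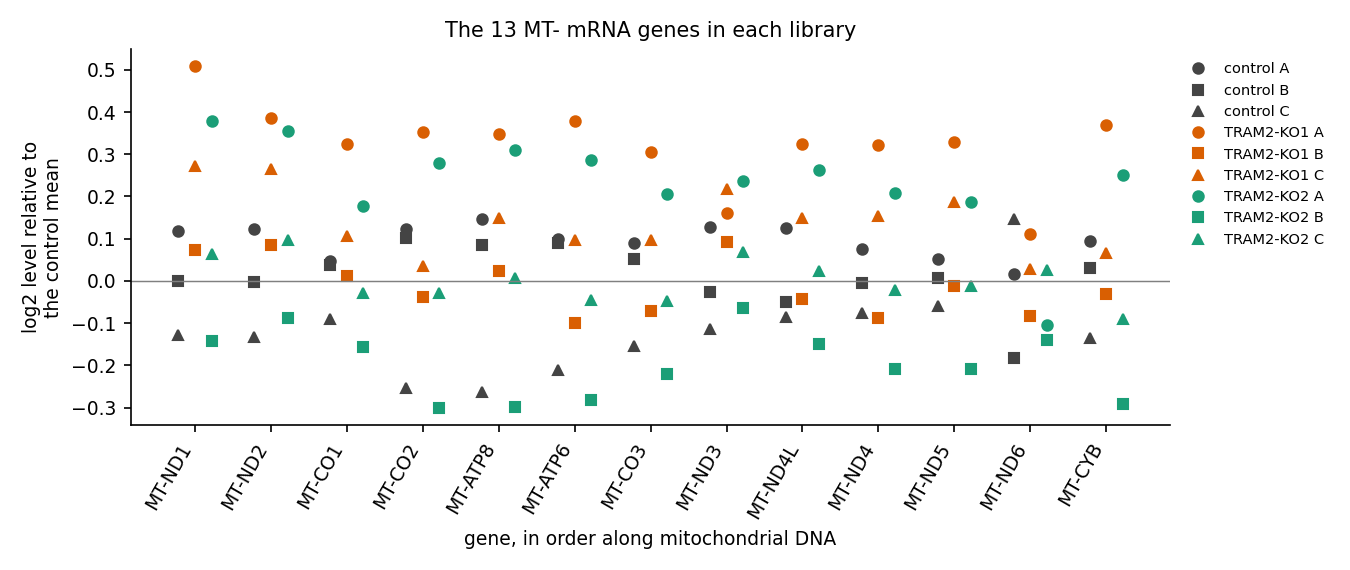
Log2 level of each MT- mRNA gene relative to the control mean (vertical) in the 9 libraries, with genes in their order along mitochondrial DNA and symbols for libraries A, B and C. TRAM2-KO1 A is highest for 11 of 13 genes and TRAM2-KO2 B lowest for 10, while MT-ND6 is highest in control C.

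Nuclear copies of mitochondrial DNA together were at 325 ± 36.6 CPM in control, beside 27375 ± 2149.5 for the 13 MT- genes. Most of these reads were on MTATP6P1, so the share is larger for MT-ATP6 than for the sum. MTATP6P1, a nuclear pseudogene that differs from MT-ATP6 at 10 of 681 bases and shares a run of 141 identical bases with it, was at 261 ± 32.8 CPM in control, beside MT-ATP6 at 2474 ± 291. Adding the reads of all such copies to their MT- genes left 0 of 13 called in all 4 comparisons.

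Of the 93 nuclear genes, 87 were abundant enough to test, and very few passed. With TRAM2-KO1, 0 rose and 1 fell (NDUFS6) in edgeR, and DESeq2 called 2 up (SDHA and UQCRH) and 1 down (NDUFS6), 3 of 87 against 4.26% of all genes. At an unadjusted edgeR p under 0.05, 20 of the 87 were higher, where 8.51% of all genes were, and 7 were lower, where 10.0% were. With TRAM2-KO2, 0 rose and 0 fell, with 3 higher (6.84% of all genes) and 3 lower (8.18%) at an unadjusted p under 0.05 and 0 called by DESeq2. In the mean of both guides 1 rose (SDHA, where 1.33% of all genes tested rose) and 1 fell (NDUFS6, where 2.51% fell). Between the guides 0 were higher with TRAM2-KO2 (1.41% of all genes) and 1 was lower (NDUFB9, against 0.865%). The shares called by edgeR at the adjusted threshold are near or below those of all genes. The median log2 fold change was 0.05 with TRAM2-KO1 and 0.01 with TRAM2-KO2, against 0.01 and 0.00 over all genes, and single genes ran from -0.51 to 0.40 and from -0.23 to 0.41. The study itself also required a log2 fold change beyond 0.5, which none of the called genes reached.

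NDUFS6, an accessory subunit of complex I (chr5:1801521-1816162, plus strand, GRCh37), fell. It was at 36.8, 34.4 and 34.5 CPM in control, 30.1, 27.5 and 30.0 with TRAM2-KO1 and 30.7, 32.1 and 29.0 with TRAM2-KO2. All 6 libraries with a TRAM2 guide lay below the 3 controls, as they did for 4.72% of all genes tested. With TRAM2-KO1 it changed by -0.27 on the log2 scale (SE 0.06, edgeR adjusted p = 0.0297, 95% interval from -0.39 to -0.14). With TRAM2-KO2 the value was -0.20 (SE 0.06, edgeR adjusted p = 0.0788), and in the mean of both -0.24 (SE 0.05, adjusted p = 0.0215). Its transcript is 58.4% G and C: after removal of each library's GC trend the value for TRAM2-KO1 was -0.17 (edgeR adjusted p = 0.0991) and with TRAM2-KO2 -0.20 (adjusted p = 0.0313).

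SDHA, the flavoprotein subunit of succinate dehydrogenase that serves both complex II and the citric acid cycle (chr5:218418-257197, plus strand, GRCh37), rose in the mean of both guides. It was at 95.04, 90.8 and 92.2 CPM in control, 100.5, 105 and 112 with TRAM2-KO1 and 107, 98.2 and 105 with TRAM2-KO2. Every library with a TRAM2 guide was above every control, as was so for 4.43% of all genes tested. Averaged over both guides it was 0.17 higher on the log2 scale (SE 0.04, edgeR adjusted p = 0.0415, interval from 0.08 to 0.26), with 0.19 (SE 0.05, adjusted p = 0.0588) for TRAM2-KO1 and 0.16 (SE 0.05, adjusted p = 0.107) for TRAM2-KO2. Pseudogenes named after SDHA took 3.46% of the reads of the gene and its copies together. With transcript length offsets the SDHA value was 0.11 and did not pass (edgeR adjusted p = 0.663).

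The RefSeq promoter of SDHA, from GRCh38.p14, is shown because it repeats a motif known from respiratory genes. NRF1 is a transcription factor that binds promoters of many of them at the letters GCGCA, any base, then GCGC, and 4 matches, in capitals, lie in the 250 bases before the start (chr5:218070-218319, plus strand). They have the same letters and are evenly spaced, with first bases at -166, -117, -68 and -19. The bases between them are also similar, so they are units of a repeat and not 4 independent matches.
SDHA: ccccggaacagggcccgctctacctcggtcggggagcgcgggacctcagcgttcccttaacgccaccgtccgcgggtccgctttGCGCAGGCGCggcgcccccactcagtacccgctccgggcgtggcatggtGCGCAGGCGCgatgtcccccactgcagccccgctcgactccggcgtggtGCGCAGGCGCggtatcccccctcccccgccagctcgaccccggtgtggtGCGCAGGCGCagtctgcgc
In windows of 300 bases searched on both strands, the NRF1 motif was in 5.78% of 35116 promoters and in 19 of the 74 nuclear OXPHOS genes with an entry (25.7%). The ETS family motif CCGGAAG was in 10.3% of all promoters and 23 of the 74 genes (31.1%), and AAGATGGC, a YY1 motif, in 2.89% and 12 of 74 (16.2%). The shares of all promoters count promoters, while those of the OXPHOS genes count genes, and gene types were not matched. The shares are therefore not directly comparable, and enrichment was not tested. NDUFS6 has 0 matches to the 3 motifs in its window. The median log2 fold change with TRAM2-KO1 was 0.05 in 18 tested genes with the NRF1 motif and 0.04 in 53 without it, 0.08 in 23 with the ETS motif and 0.04 in 48 without it, and 0.00 in 12 with the YY1 motif and 0.05 in 59 without it. With TRAM2-KO2 the medians with and without the motif were -0.018 and 0.013 for NRF1, 0.012 and -0.002 for ETS, and -0.013 and 0.011 for YY1. These medians were not tested against each other.

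NDUFB9, an accessory subunit in the membrane arm of complex I, differed between the guides. It was at 71.2, 68.5 and 71.9 CPM in control, 76.6, 80.6 and 74.5 with TRAM2-KO1 and 67.8, 67.7 and 69.9 with TRAM2-KO2. The TRAM2-KO1 libraries lay above all others. Of all genes tested, 11.9% had every TRAM2-KO1 library above every control. TRAM2-KO2 lay wholly below TRAM2-KO1 for 11.9%, and the share with both was not counted. The log2 difference of TRAM2-KO2 from TRAM2-KO1 was -0.17 (SE 0.04, edgeR adjusted p = 0.0482, interval from -0.26 to -0.09), while neither guide passed against control, at 0.13 (SE 0.04, adjusted p = 0.111) and -0.04 (SE 0.04, adjusted p = 0.722). With the GC trend removed the difference was -0.12 (edgeR adjusted p = 0.0612).

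By complex, the nuclear genes of TRAM2-KO1 had a lower median in complex I than in complexes II to V. The median log2 fold change was 0.01 in complex I (37 genes), 0.10 in II (4), 0.09 in III (9), 0.09 in IV (14) and 0.08 in V (17), with 19, 4, 8, 11 and 15 genes above 0. With TRAM2-KO2 the medians were -0.02, 0.01, 0.03, 0.05 and 0.01. The 4 complex II assembly factors lay between 4.53 and 19.3 CPM in control with values of -0.16 to 0.12 for TRAM2-KO1 and -0.23 to 0.05 for TRAM2-KO2, and the readthrough genes, whose reads overlap those of their parent genes, at -0.41 and -0.25 for TRAM2-KO1 and -0.02 and -0.12 for TRAM2-KO2. None of these 6 passed. Complex I holds several of the most GC-rich genes, and the medians of complexes were not tested against each other.

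**Figure D4:**
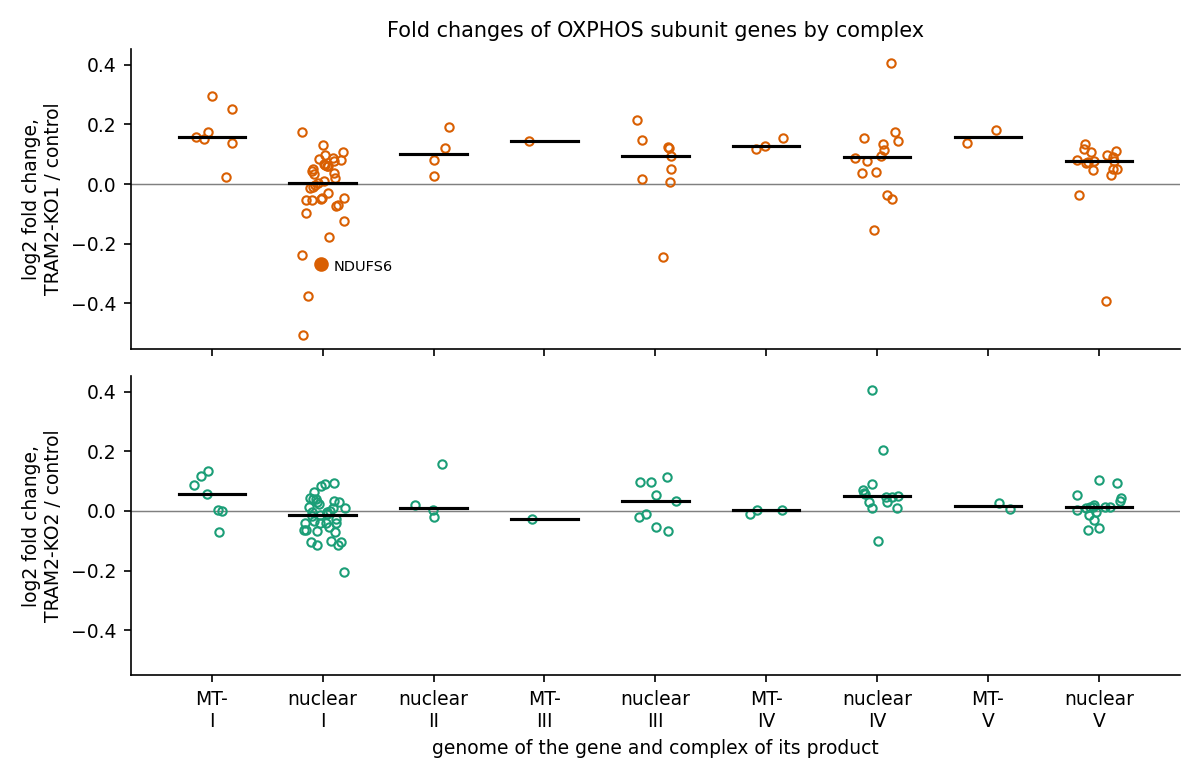
Log2 fold change against control of each tested subunit gene with TRAM2-KO1 (top) and TRAM2-KO2 (bottom), by genome and complex, with medians as black lines and filled points for an adjusted p under 0.05. NDUFS6 (-0.27) is the only filled point, with TRAM2-KO1.

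With TRAM2-KO1, 22 of 87 nuclear genes had all 3 libraries above all 3 controls, against 11.9% of all genes tested, and 5 had all below, against 11.1%. With TRAM2-KO2 the counts were 12 above (11.3% of all genes) and 8 below (12.3%). All 6 libraries with a TRAM2 guide lay above the 3 controls for 10 nuclear genes (4.43% of all genes) and below for 1 (4.72%). Several GC-rich genes were low with TRAM2-KO1, mainly in libraries B and C. NDUFS7, an iron-sulfur subunit of complex I (60.8% GC), was at 17.1, 19.3 and 17.9 CPM in control, 17.2, 9.75 and 11.0 with TRAM2-KO1 (in the order A to C), and 16.9, 20.2 and 14.7 with TRAM2-KO2. Library A lies within the range of the controls, and B and C lie below it. ATP5F1D, the delta subunit of the synthase (63.9% GC), was at 28.8, 29.5 and 26.9 CPM in control and 26.8, 15.8 and 22.03 with TRAM2-KO1, and NDUFB7 (64.9% GC) at 27.9, 27.4 and 23.7 in control and 26.0, 15.5 and 19.1 with TRAM2-KO1. None of the 3 passed the test (edgeR adjusted p = 0.184, 0.184 and 0.228).

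The same gradient ran through all genes. Of nuclear OXPHOS genes with 55% GC or more (22 genes), the median log2 level relative to the control mean was 0.01 in TRAM2-KO1 A, -0.22 in B and -0.14 in C, and over all 4020 genes tested in that range it was 0.00, -0.23 and -0.14. Below 45% GC (34 genes) it was 0.04, 0.17 and 0.06, against 0.01, 0.09 and 0.05 over 6059 genes. The log2 fold change with TRAM2-KO1 was positive in 5 of the 22 GC-rich members and in 30 of these 34. Over all genes tested it was positive in 783 of 4020 and 4273 of 6059. In the TRAM2-KO2 libraries the GC-rich members had medians of 0.02, 0.02 and -0.04. In library A of TRAM2-KO1 the medians of the 3 GC classes lay between 0.01 and 0.04. Without TRAM2-KO1 A, 11 nuclear genes were called up and 8 down with TRAM2-KO1, and 12.7% of all genes were called. With A as the only TRAM2-KO1 library, the median log2 fold change of the 87 nuclear genes tested was 0.02, against 0.05 with all TRAM2-KO1 libraries.

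**Figure D5:**
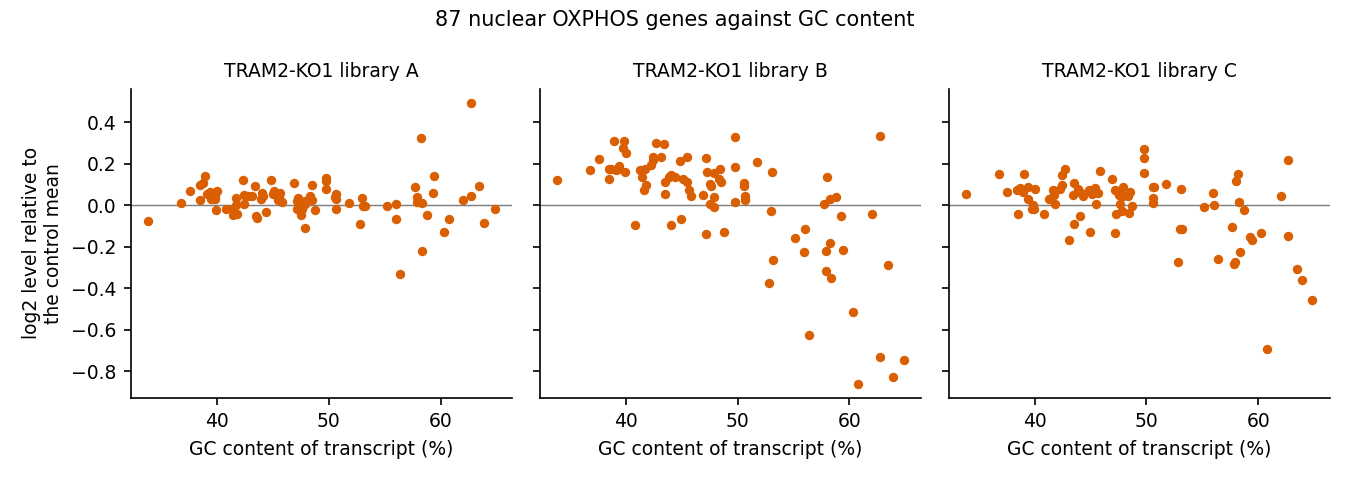
Log2 level relative to the control mean (vertical) against GC content of the longest transcript (horizontal, percent) for 87 nuclear OXPHOS genes in the 3 TRAM2-KO1 libraries. Members with 55% GC or more have a median of 0.01 in A, -0.22 in B and -0.14 in C.

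After removal of each library's GC trend, 2 nuclear genes were called with TRAM2-KO1 (SDHA and COX7A1, both up), where 3.51% of all genes were called, and 4 with TRAM2-KO2 (SDHA, UQCRC2 and ATP5F1E up, NDUFS6 down), where 7.09% were. UQCRC2, a core protein of complex III, was at 121, 124 and 119.6 CPM in control, 131, 137 and 129 with TRAM2-KO1 and 128, 132 and 135 with TRAM2-KO2. All 6 libraries with a TRAM2 guide exceeded the controls, as they did for 4.43% of all genes tested. ATP5F1E, the epsilon subunit of the synthase, was at 179, 179.6 and 179.5 CPM in control, 182, 196 and 188 with TRAM2-KO1 and 189.9, 198 and 189 with TRAM2-KO2, again with no overlap. Without the correction neither passed (edgeR adjusted p = 0.107 and 0.120 for UQCRC2, 0.268 and 0.144 for ATP5F1E, for TRAM2-KO1 and TRAM2-KO2).

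Subunits encoded by more than 1 gene were carried mainly by their widely expressed forms. COX4I1 was at 436 ± 7.67 TPM in control, and its lung and hypoxia form COX4I2 had 0 reads in all 9 libraries. COX6A1 stood at 398 ± 10.2 TPM with 0 reads of the muscle form COX6A2, COX8A at 292 ± 10.5 TPM with at most 1 read of the testis form COX8C in a library, and NDUFA4 had at most 4 reads of NDUFA4L2 beside it. COX7B2 had 0 reads and ATP5MGL at most 2. A count of 0 in a library allows up to 3 reads. COX6B1 was at 444 ± 15.6 TPM and the testis form COX6B2 at 1.25 ± 0.104. COX7A2 was at 558 ± 9.43 TPM, COX7A2L, which helps join complexes III and IV into supercomplexes, at 66.7 ± 2.31, and the muscle and heart form COX7A1 at 24.4 ± 5.84. The 3 genes for subunit c of the synthase ring, which encode the same mature protein, were at 246 ± 5.22 TPM (ATP5MC3), 182 ± 5.55 (ATP5MC2) and 167 ± 2.39 (ATP5MC1), in that order with no overlap of mean ± SD. ATP5MG was at 317 ± 7.26 TPM.

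Among these forms, COX7A1 had the most positive value with TRAM2-KO1. It was at 2.98, 2.95 and 2.99 CPM in control, 4.38, 3.88 and 3.54 with TRAM2-KO1 and 3.29, 3.60 and 3.39 with TRAM2-KO2. All 6 libraries with a TRAM2 guide were above the controls, as they were for 4.43% of all genes tested. The log2 fold change was 0.40 (SE 0.12, edgeR adjusted p = 0.104) with TRAM2-KO1 and 0.20 (SE 0.12, adjusted p = 0.505) with TRAM2-KO2, and with the GC trend removed the former was 0.60 (adjusted p = 0.0143). UQCRH, the hinge subunit of complex III, was at 65.9, 64.7 and 63.1 CPM in control, 68.2, 81.3 and 75.6 with TRAM2-KO1 and 69.0, 70.6 and 67.4 with TRAM2-KO2, again above control throughout, at 0.21 (SE 0.06, edgeR adjusted p = 0.0790) and 0.10 (SE 0.06, adjusted p = 0.501). COX4I1, COX6A1, COX6B1, COX7A2, COX7A2L, COX8A, NDUFA4, ATP5MG and the 3 subunit c genes lay between -0.15 and 0.14 with both guides, and none passed.

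The other mitochondrial genes, in 9 lists, gave few calls. The assembly factors of complexes III, IV and V had 2 of 39 up and 0 down with TRAM2-KO1 and 1 up and 0 down with TRAM2-KO2, where 0.753% and 1.73% of all genes tested were called up, with medians of 0.02 and 0.05. TTC19, which acts in complex III, rose with both guides, from 45.7 ± 1.12 CPM to 52.7 ± 2.18 and 53.2 ± 0.180 (log2 fold change 0.20, edgeR adjusted p = 0.0217, and 0.22, adjusted p = 0.0109). COX20, a chaperone of MT-CO2 in complex IV assembly, rose with TRAM2-KO1, from 68.6 ± 1.52 to 76.8 ± 1.47 CPM (0.16, adjusted p = 0.0240), and was at 73.0 ± 1.01 CPM with TRAM2-KO2 (0.09, adjusted p = 0.209). With the GC trend removed COX20 did not pass with TRAM2-KO1 (edgeR adjusted p = 0.0835), and TTC19 passed with both guides (0.0201 and 0.00125). Of the 16 genes of mtDNA replication and transcription, 1 rose with TRAM2-KO2, the nuclease gene MGME1 (0.15, adjusted p = 0.0400, where 1.73% of all genes rose), and 0 changed with TRAM2-KO1. The transcription factor TFAM stood at 95.8 ± 3.83, 103 ± 4.89 and 99.9 ± 3.47 CPM in control, TRAM2-KO1 and TRAM2-KO2.

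The remaining 7 lists had 0 calls in either direction with either guide in edgeR. Their medians for TRAM2-KO1 and TRAM2-KO2 were 0.02 and -0.02 in the electron carriers (7 genes), 0.03 and -0.01 in the complex I assembly factors (18), 0.05 and 0.01 in mitochondrial RNA processing (20), 0.03 and 0.02 in the citric acid cycle with pyruvate dehydrogenase (18), 0.00 and 0.04 in the nuclear regulators of respiration (10), 0.04 and 0.00 in the mitochondrial ribosome (81), and 0.04 and 0.00 in protein import (34). At an unadjusted p under 0.05 the mitochondrial ribosome had 17 of 81 higher and 6 lower with TRAM2-KO1, against 8.51% and 10.0% of all genes, and 2 higher and 1 lower with TRAM2-KO2, against 6.84% and 8.18%.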

How the data were processed

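Poly(A) RNA was isolated and libraries were made with an Illumina TruSeq RNA kit per the labels, and with the strand-specific TruSeq Stranded mRNA kit per the study's methods. The authors trimmed reads with cutadapt and quantified transcripts with Salmon; no source used here gives versions, transcript release, build or the strand setting given to Salmon. The deposited values were expected counts (estimated counts of reads per transcript made by the authors with Salmon, not normalised), TPM scaled by the authors over all transcripts of a library, and effective lengths. Deposited counts were summed per gene through GENCODE v44lift37 (GRCh37; 220336 of 226030 transcripts matched) and rounded, and 15139 genes with enough reads (filterByExpr, minimum count 10) were tested in edgeR 4.0.16 (quasi-likelihood, TMM, all 9 libraries, group as the only term, two-sided), with Benjamini-Hochberg adjustment over all of them. CPM values are TMM-scaled. Relative levels use a pseudocount of 0.5 CPM. The common biological coefficient of variation was 5.86%. DESeq2 1.42.0 was an alternative, as were other scaling, no filter, GC trend removal (lowess span 0.3), a replicate block, length offsets, adding nuclear copies, and leaving out each library. Using TRAM2-KO1 A alone was chosen after seeing the data.

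Members and lists were chosen with earlier results of these data known. Named genes were the 13 MT- genes, called members, members with a second gene for the same subunit, the highest and lowest tested member of each complex, and up to 2 called genes per list, direction and comparison; NDUFS7, NDUFB7, UQCRC2, ATP5F1E, TFAM, MTATP6P1 and the rRNAs were added after their values were seen. The sgRNA groups came from sample labels; the series design text names other conditions. The procedure was tested on simulated counts.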

Additional observations from a re-analysis of the deposited data

Results flagged for a closer look

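NDUFB9 was picked out because the effects of the guides differed by the test of the difference itself: TRAM2-KO2 minus TRAM2-KO1 was -0.17 on the log2 scale (SE 0.04, edgeR adjusted p = 0.0482), with 77.2 ± 3.10 CPM for TRAM2-KO1 and 68.5 ± 1.24 for TRAM2-KO2 (SD, n = 3). Its adjusted p ranged from 0.0273 to 0.295 over 19 alternatives, and it passed in 5 of them. After GC trend removal the difference was -0.12 (edgeR adjusted p = 0.0612) and did not pass.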

How the results depend on the processing

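The 13 mitochondrial genes had 0 calls in all 4 comparisons under each of 19 alternatives. Counts of called nuclear genes are given in the order TRAM2-KO1, TRAM2-KO2, mean of both guides, and TRAM2-KO2 against TRAM2-KO1, where the values reported are 1, 0, 2 and 1. Calls over all 15139 genes tested, 440, 639, 581 and 344 in the values reported, stand in brackets. Without a filter the nuclear counts were 5, 0, 2 and 3 (725, 666, 675 and 683 of 31795 genes). With the GC trend removed they were 2, 4, 4 and 1 (532, 1074, 847 and 567). Transcript length offsets gave 0, 0, 0 and 0 (112, 156, 168 and 44), where fewer genes of any kind were called. The DESeq2 test gave 3, 0, 3 and 3 (645, 625, 640 and 589). DESeq2 size factors gave 1, 0, 2 and 0 (434, 647, 591 and 344). The nuclear counts were unchanged with scaling on nuclear genes or with nuclear copies added. With 1 library left out they ran from 0 to 19, 0 to 1, 0 to 5 and 0 to 13. The highest values, except that of TRAM2-KO2 against control, came without TRAM2-KO1 A, where 1952, 771, 1039 and 1828 of 15409 genes were called. Each lone or reduced group was assumed to vary like the others. The cause was not tested.

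Correlations over all genes tested gave no sign that the letters pair the samples. Same-letter correlations of deviations from group means ran from -0.088 to 0.107, and those between different letters from -0.155 to 0.129. Not every library correlated best with its own letter. The MT- mRNA sum, however, was highest in library A of each group (29037 CPM in control, 34754 with TRAM2-KO1 and 32262 with TRAM2-KO2). A correlation over all genes says little about those 13 genes. Whether libraries of 1 letter were prepared together cannot be told from these values. With the letters as a replicate block the nuclear counts were 0, 0, 1 and 0 (404, 568, 515 and 275 of 15139 genes). With the block and the GC trend removed they were 2, 3, 1 and 0 (482, 963, 777 and 434).

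Summed log2 ratios of mitochondrial genes (0.15, 0.01, 0.08 and -0.14) became 0.34 for TRAM2-KO1 against control, 0.18 for the mean and -0.34 between the guides with TRAM2-KO1 A alone. With 1 library left out they ran from 0.05 to 0.23, -0.11 to 0.12, 0.01 to 0.13 and -0.26 to -0.03. For nuclear genes, the ratios for TRAM2-KO1 against control (0.05) and between the guides (-0.04) became 0.026 and -0.0087 with TRAM2-KO1 A alone, and ran from 0.027 to 0.063 and from -0.047 to -0.0095 with 1 library left out, the smallest being without TRAM2-KO1 B. For TRAM2-KO2 (0.016) they ran from 0.0090 (without TRAM2-KO2 A) to 0.025 (without TRAM2-KO2 C). NDUFS6 passed with TRAM2-KO1 in 8 of 19 alternatives (edgeR or DESeq2 adjusted p from 0.0115 to 0.329) and in the mean in 13 (0.0101 to 0.139), SDHA in the mean in 9 (0.00812 to 0.663), and no called gene changed sign.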

Other observations

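Genes below were singled out after their values were seen. REXO2, a nuclease that degrades short mitochondrial RNA, was at 16.1 ± 7.51 CPM in control, 54.2 ± 29.0 with TRAM2-KO1 and 21.8 ± 14.5 with TRAM2-KO2 (SD, n = 3), and its log2 fold change of 1.75 with TRAM2-KO1 did not pass (SE 0.56, edgeR adjusted p = 0.142). MT-RNR2, the large mitochondrial rRNA, was at 2949, 2998 and 2869 CPM in control, 3788, 3624 and 3581 with TRAM2-KO1, and 3619.8, 2729 and 2951 with TRAM2-KO2. Its TRAM2-KO1 libraries were all above the controls, as for 11.9% of all genes tested, at 0.32 (SE 0.08, edgeR adjusted p = 0.0694). Among nuclear OXPHOS genes, NDUFV2 and SDHA had the largest shares of reads on pseudogenes named after them, 3.87% and 3.46%.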
